A study of Mus musculus with 4 samples.

Results

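The long non-coding RNA (lncRNA) genes with the highest deposited values were examined in hippocampus of mice with and without Tas1r3. A gene was taken when its RefSeq transcripts were all non-coding and typed as lncRNA, when it lay on an autosome, and when its summed value reached 50 units in each of the 4 libraries. Genes for small nucleolar RNA hosts and a set of imprinted and other listed lncRNAs (9 genes) were left out by name. This left 190 genes of the 16148 with a value, out of 963 autosomal lncRNA genes. The genes were thus chosen by their level in all 4 libraries, and levels are given below as a description. Just inside the threshold lay Gm13421, with a lowest value of 50.9 units, and just outside it lay Gm4221, at 49.8 units. A gene near 0 in 1 genotype could not enter the set.

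The mice were Tas1r3 KO on a western diet for 18 weeks (KO-WD, n = 2 libraries) and wild-type mice on the same diet for the same time (WT-WD, n = 2 libraries). The question of the comparison is what differs with the loss of Tas1r3 on that diet. Tas1r3 encodes a subunit of the sweet and umami taste receptors. Total RNA of the hippocampus was sequenced with an Ion Total-RNA kit. All 4 libraries share the diet, and strain and age are not given in the labels. No label ties the libraries of a genotype to different animals, so the p-values rest on a spread between libraries that may be technical. Tas1r3 itself stood at 0.887 and 1.85 units in KO-WD libraries, against 16.1 and 15.9 units in WT-WD libraries, a log2 difference of -2.88 ± 0.34 (SE, limma adjusted p = 0.0813).

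The word abundant held for only some of the 190 genes. The deposited table is made of 3 sets of transcripts that follow accession order, and each set was scaled to about 1000000 units per library. Set 1 holds coding transcripts with long accession numbers, set 2 the older coding and non-coding transcripts, and set 3 the non-coding transcripts added most recently (1037 rows). Low values pile up at multiples of a step, which is what 1 read is worth. That step was between 0.187 and 0.258 units in set 2 and between 11.6 and 17.7 units in set 3. Estimated depth was between 5923168 and 8192348 reads per library, of which set 3 took only 0.876% to 1.05% while holding 33.2% of the units. The threshold of 50 units thus stood for 194 to 267 reads in set 2 and for 2.82 to 4.31 reads in set 3.

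Of the 190 genes, 17 lay in set 2 alone, 170 in set 3 alone and 3 in both. All 17 genes of set 2 had at least 250.0 estimated reads in every library, with a median of 537 reads over their means. The 170 genes of set 3 had a median of 16.3 reads, and 100 of them averaged under 20 reads. Levels are therefore given in estimated reads wherever genes are compared with each other. The main fit compares the genotypes in units, and reads given for single libraries are not scaled for depth. Together the 190 genes took 0.481% and 0.548% of the estimated reads in KO-WD libraries, against 0.485% and 0.505% in WT-WD libraries. If the authors counted each set separately, a read could have entered more than 1 set, and this was not tested.

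**Figure D1:**
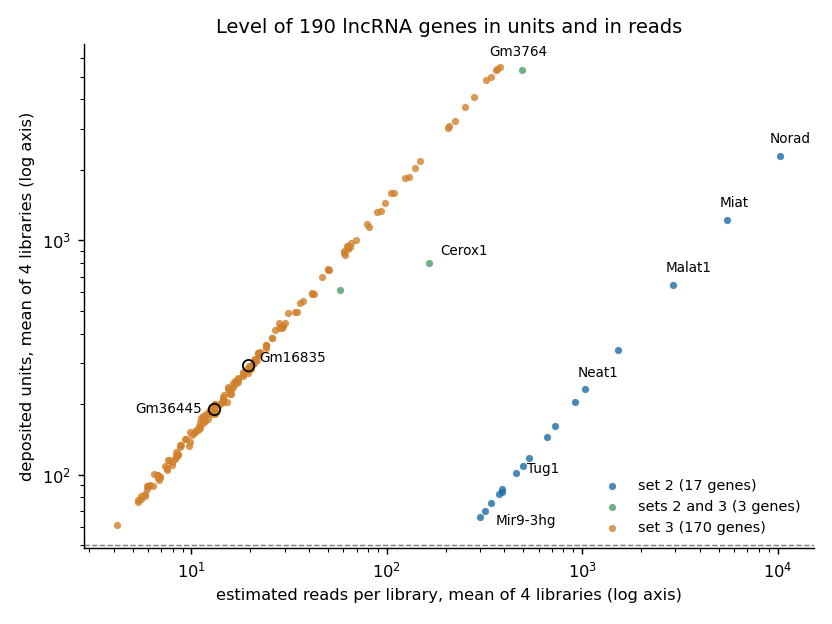
Mean deposited units of each of the 190 lncRNA genes against its mean estimated reads (both log axes, mean of 4 libraries), coloured by transcript set, with the threshold of 50 units dashed and the 2 genes past the adjusted threshold ringed in black. The genes of set 3 run far to the left of those of set 2, so that Gm3764 at 5505 units has 379 reads while Norad at 2293 units has 10351.

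LncRNAs act as RNA rather than through a protein. Some build nuclear bodies or gather in them, as Neat1 does in paraspeckles and Malat1 in nuclear speckles, some hold proteins or microRNAs in the cytoplasm, and some are the primary transcripts of microRNAs. Neurons express many of them, and Miat, Mir124a-1hg, Bc1 and the hosts of miR-9 are known from brain. Predicted genes with Gm or Rik names mostly have no described role, and 169 of the 190 symbols are of that kind or carry a LOC name.

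Short sequence elements show how the best measured of these RNAs are known to act. Norad binds Pumilio proteins through repeats of the element TGTANATA, Miat carries repeats of TACTAAC, which resemble the intron branch point and are bound by splicing factors, and Oip5os1 (Cyrano) pairs with miR-7 at a long site that leads to decay of the microRNA. In the GENCODE M21 transcripts (GRCm38, the strand of the transcript only), Norad of chromosome 2 holds 11 copies of TGTANATA in 4915 bases, or 2.24 per kb against 0.121 per kb over 18930 lncRNA transcripts. Of those transcripts 13% hold the element at least once, and of the 238 at least as long as that of Norad 49.6% do. Miat of chromosome 5 holds 6 copies of TACTAAC in 9163 bases, an element present in 3.78% of all lncRNA transcripts and in 47.6% of the 21 at least as long. Oip5os1 of chromosome 2 holds 2 matches to GTCTTCC, the complement of the miR-7 seed, which 11.6% of lncRNA transcripts hold, and 73.3% of the 30 at least as long. The stretches below are bases 2369 to 2458 of Norad and 5540 to 5629 of Miat, with the elements in capitals, and bases 2935 to 2959 of Oip5os1, with the 22 bases that pair with miR-7a-5p in capitals. In miR-7a-5p, from RefSeq, the capitals mark the seed, bases 2 to 8.
Norad: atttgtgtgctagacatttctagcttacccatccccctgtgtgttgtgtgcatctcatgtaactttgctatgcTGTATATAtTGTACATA
Miat: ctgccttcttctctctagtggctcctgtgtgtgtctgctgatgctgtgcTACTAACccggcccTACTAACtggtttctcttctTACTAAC
Oip5os1: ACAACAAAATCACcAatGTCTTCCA
mmu-miR-7a-5p: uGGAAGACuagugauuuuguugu

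Of the 190 genes, 3 contain the hairpins of miR-9, a microRNA of neural progenitors and neurons. In the RefSeq table of GRCm38.p6, Mir9-1 lies within Gm3764 on chromosome 3, Mir9-2 within C130071C03Rik on chromosome 13 and Mir9-3 within Mir9-3hg on chromosome 7. Each lies on the strand that GENCODE M21 gives its host. All 3 hairpins give the same mature RNAs, shown here with the seed in capitals, because the 3 hosts are compared below. Other hairpins in the span of a listed gene are Mir3093 in Gm3764, Mir1839 in 2900076A07Rik and Mir6913 in Gm48551, and, on the strand opposite the host, the miR-9b genes Gm25641 in Gm3764 and Gm51268 in C130071C03Rik.
mmu-miR-9-5p: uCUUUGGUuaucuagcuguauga
mmu-miR-9-3p: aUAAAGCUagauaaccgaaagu

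Norad was the most deeply read of the 190 genes, with 10269 and 10230 reads in KO-WD libraries, against 8652 and 12252 reads in WT-WD libraries. On the deposited scale it had 2276 and 2367 units in KO-WD libraries, against 2234 and 2297 units in WT-WD libraries. The genotypes overlapped, and the log2 difference of 0.03 ± 0.11 (SE) was within the spread between replicates (limma adjusted p = 0.981). Miat followed with 4557 and 7126 reads in KO-WD libraries, against 4096 and 6244 reads in WT-WD libraries. Its 1010 and 1649 units in KO-WD libraries lay on both sides of the 1057 and 1171 units in WT-WD libraries, and KO-WD replicate 2 was the highest library. Malat1 was the third, with 2696 and 2690 reads in KO-WD libraries, against 2674 and 3630 reads in WT-WD libraries. Its units, given below, were lower in both KO-WD libraries. The 10 genes with the most reads all belonged to set 2, whereas 10 of the 12 highest in units belonged to set 3 alone.

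Per kb of spliced length, known for 54 of the 190 genes, the order changed again. Bc1, a short cytoplasmic RNA of dendrites, had 328 estimated reads per 1000000 reads (RPM) per kb. Norad had 304, Miat 90.7, Malat1 60.4 and Neat1 12.7 on the same scale. Neat1 ranked 5 in reads and 20 per kb, at a length of 11.9 kb. Of its 2 transcripts, 1 had 961 and 1319 reads in KO-WD libraries, against 811 and 995 in WT-WD libraries. The other had 14.2 and 5.93 reads in KO-WD libraries, against 8.27 and 20.3 in WT-WD libraries. The median length takes no account of that, so the rank of 20 is not read as that of the main form. The length of a gene was the median over its transcripts in GENCODE M21, so it need not be the length of the form expressed in hippocampus.

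The miR-9 hosts show how far units and reads part. Gm3764 had 5356 and 5931 units in KO-WD libraries, against 5137 and 5598 units in WT-WD libraries, and was the highest of all 190 genes in units. Those values stand for 323 and 419 reads in KO-WD libraries, against 290.01 and 482 reads in WT-WD libraries. Mir9-3hg had only 72.7 and 64.1 units in KO-WD libraries, against 71.3 and 72.3 units in WT-WD libraries. Its reads were nevertheless 328 and 277 in KO-WD libraries, against 276 and 386 in WT-WD libraries, which is close to the reads of Gm3764. C130071C03Rik had 177 and 225 reads in KO-WD libraries, against 170 and 254 reads in WT-WD libraries. All 3 hosts overlapped between the genotypes, with log2 differences of 0.07 ± 0.12, 0.04 ± 0.11 and -0.07 ± 0.15 (SE) for Gm3764, C130071C03Rik and Mir9-3hg.

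The other genes among the 12 highest in units were all in set 3 or in both sets and ranged from 208 reads (Gm5113) to 491 reads (1500004A13Rik) on average. None of them passed the threshold between the genotypes, with limma adjusted p-values from 0.911 (Gm10419) to 0.999 (A230006K03Rik). Several cannot be read as separate transcripts. Grin1os lies opposite Grin1, the gene of the obligatory NMDA receptor subunit, and the use of read strand is not given in the sources used here. It had 219 and 343 reads in KO-WD libraries, against 233 and 318 reads in WT-WD libraries, while Grin1 had 5011 and 5691 reads in KO-WD libraries, against 4408 and 5841 reads in WT-WD libraries. B930095G15Rik lies within Farp1 on the same strand. Rps18-ps4 is a pseudogene of the ribosomal protein gene Rps18, with which it may share reads. Over all 190 genes, 106 overlapped the span of a coding gene, 71 of them only on the opposite strand and 4 on the same strand at least once. For the other 31 the strand was not known.

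Few of the lncRNA genes differed between the genotypes. In the fit across 15707 genes, limma on log2(units + 1) with an adjusted p under 0.05, 10 genes passed (0.0637%), 8 higher (0.0509%) and 2 lower (0.0127%) in KO-WD. Of the 190 lncRNA genes 2 passed, Gm16835 higher and Gm36445 lower in KO-WD, both in set 3. Most of the 10 lay in that set. Of the 753 genes mostly of set 3, 7 passed as higher and 2 as lower. Among the 580 of those outside the 190, 6 passed as higher and 1 as lower. These 2 genes are thus read beside set 3 rather than beside all genes. Both Gm16835 and Gm36445 are predicted genes with no described role.

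Gm16835, on chromosome 14 opposite the glycoprotein quality-control gene Uggt2, had 428 and 379.9 units in KO-WD libraries, against 177 and 183 units in WT-WD libraries. It averaged 404 ± 34.3 units in KO-WD libraries and 179.9 ± 4.41 units in WT-WD libraries (SD, n = 2 each). The libraries did not overlap, and the log2 difference was 1.16 ± 0.11 (SE, limma adjusted p = 0.0272). In reads this was 25.8 and 26.9 in KO-WD libraries, against 9.98 and 15.8 in WT-WD libraries. The 95% Poisson intervals, which cover counting error only, were 16.9 to 37.9 and 17.7 to 39.1 reads in KO-WD libraries, against 4.78 to 18.4 and 8.96 to 25.7 reads in WT-WD libraries. Uggt2 had 67.4 and 98.5 units in KO-WD libraries, against 75.5 and 73.4 units in WT-WD libraries (log2 difference 0.13 ± 0.20, SE).

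Gm36445, on chromosome 13, had 116 and 101 units in KO-WD libraries, against 283 and 259 units in WT-WD libraries. It averaged 109 ± 10.6 units in KO-WD libraries and 271 ± 17.2 units in WT-WD libraries (SD, n = 2 each). Again the libraries did not overlap, and the log2 difference was -1.31 ± 0.13 (SE, limma adjusted p = 0.0272). These values stand for 7 and 7.14 reads in KO-WD libraries, against 16 and 22.3 reads in WT-WD libraries. The intervals were 2.81 to 14.4 and 2.91 to 14.6 reads in KO-WD libraries, against 9.15 to 26.0 and 14.03 to 33.7 reads in WT-WD libraries.

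**Figure D2:**
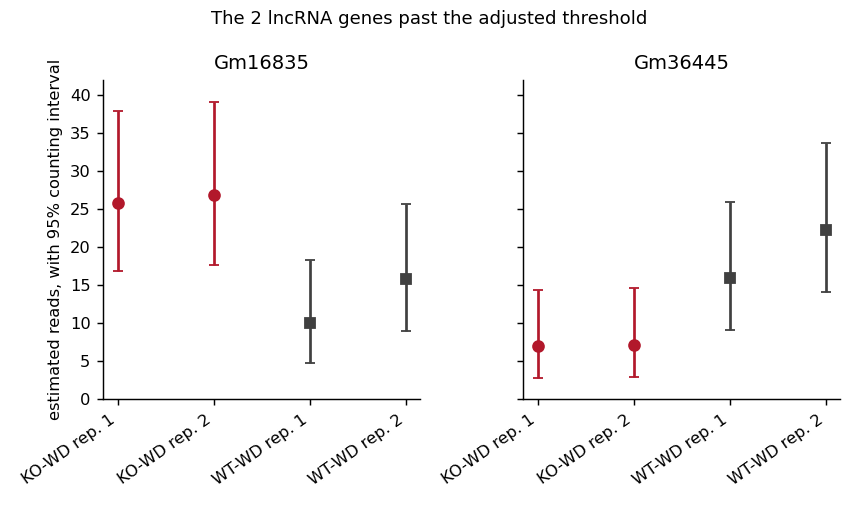
Estimated reads of Gm16835 (left) and Gm36445 (right) in each library, not scaled for the depth of the library, with bars giving the 95% Poisson interval for counting error. Gm16835 has 25.8 and 26.9 reads in the KO-WD libraries and 9.98 and 15.8 in the WT-WD libraries, Gm36445 has 7 and 7.14 in the KO-WD libraries and 16 and 22.3 in the WT-WD libraries, and intervals of the genotypes overlap for both genes.

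Neither call was made by the fits that allow for the few reads of set 3. With a separate mean-variance trend for each set, the unadjusted p was 0.0684 for Gm16835 and 0.0682 for Gm36445. With precision weights from the estimated reads, it was 0.0249 and 0.0211, with adjusted p-values of 0.709 and 0.701. Over all alternatives the adjusted p ranged from 0.00316 to 0.814 for Gm16835 and from 0.00149 to 0.814 for Gm36445. These fits called 0 of the 190 genes, against 7 of 15707 genes (0.0446%) with separate trends and 8 of 16029 (0.0499%) with weights.

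At an unadjusted p under 0.05, 28 of the 190 genes passed (14.7%), while 5.28% of all genes tested did. These were 14 with higher values in KO-WD, where 2.38% of all genes were, and 14 with lower values, where 2.90% of all genes were. All 28 lay in set 3, and 23 of them averaged under 30 reads. The share in set 3 was 16.5% of 170 genes, close to the 17.2% of the 580 other genes mostly of set 3, and it was 0 of 17 for the genes of set 2, against 3.41% of all genes mostly of set 2. With separate trends 4 of the 190 genes passed (2.11%), against 6.14% of all genes, and with weights 15 passed (7.89%), against 6.58%. In set 2 these were 2 of 17 genes (11.8%) in either fit, against 5.86% and 6.56% of all genes mostly of set 2. In set 3 they were 2 of 170 (1.18%) with separate trends and 13 (7.65%) with weights. The other genes mostly of set 3 stood at 8.10% and 6.91%. The libraries of the genotypes did not overlap for 68 of the 190 genes (35.8%), against 36.3% of all genes tested. Of the 68, 36 had higher values in KO-WD, where 17.9% of all genes did, and 32 lower values, where 18.4% did. The median log2 difference was 0.03 over the 190 genes and 0.00 over all genes. The median absolute log2 difference was 0.27 over the 190 genes, 0.30 in set 3 and 0.19 in set 2, against 0.15 over all genes.

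**Figure D3:**
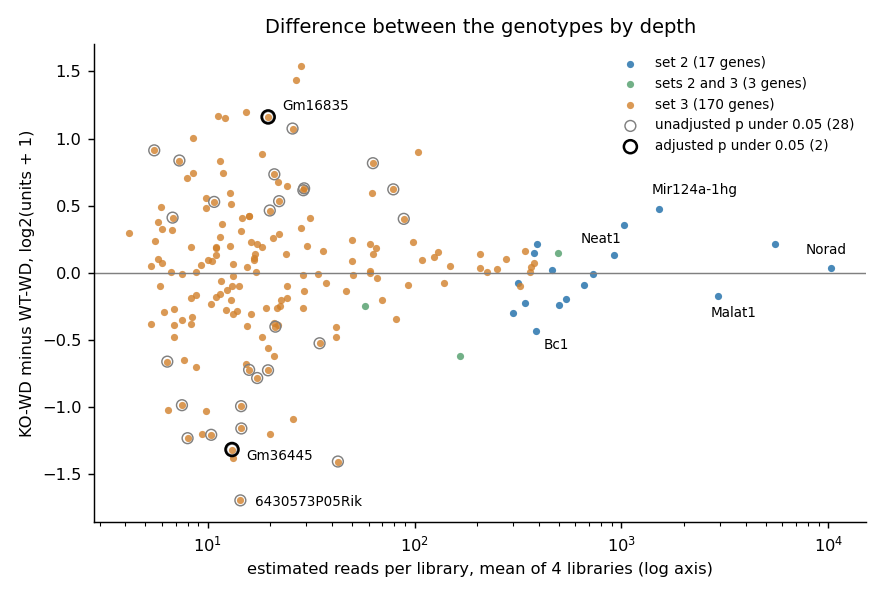
Difference between KO-WD and WT-WD on the log2(units + 1) scale for each of the 190 lncRNA genes, against its mean estimated reads (log axis), coloured by transcript set, with grey rings at an unadjusted p under 0.05 and black rings at an adjusted p under 0.05. The widest differences, from -1.69 to 1.54, lie among genes of set 3 with few reads, and the 17 genes of set 2 lie between -0.43 and 0.48.

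The spread between libraries of 1 genotype followed the number of reads. For the 41 genes under 10 reads, the median absolute log2 difference between the 2 libraries of a genotype was 0.52, where counting alone gives 0.55, and the median difference between genotypes was 0.38. The difference between genotypes is one of means over 2 libraries, which counting error and replicate spread move less than a difference between single libraries. For the 86 genes from 10 to 30 reads these values were 0.43, 0.36 and 0.35, and for the 28 genes from 30 to 100 reads 0.35, 0.19 and 0.21. From 100 to 1000 reads (30 genes) they were 0.16, 0.08 and 0.11. The 5 genes above 1000 reads had a replicate spread of 0.14, where counting gives 0.03, and a difference between genotypes of 0.21. In each class above 10 reads the replicates thus differed by more than counting alone gives, least so from 10 to 30 reads.

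**Figure D4:**
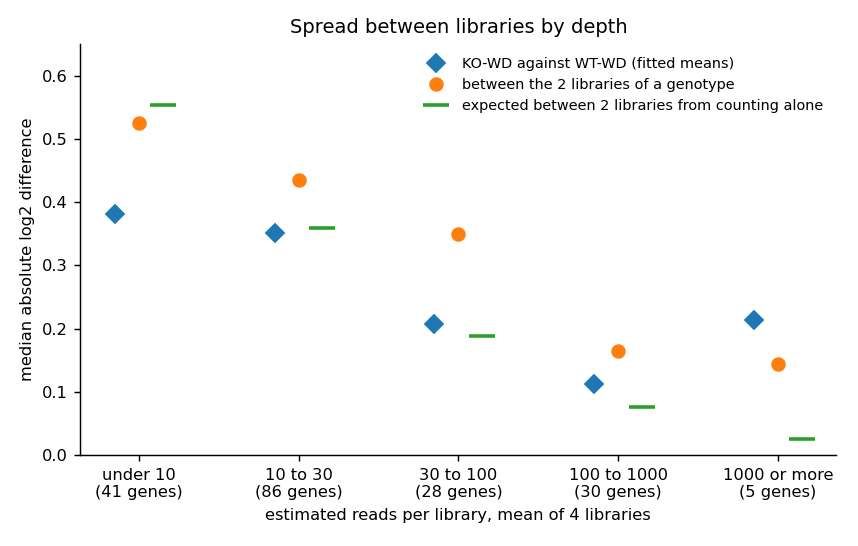
Median absolute log2 difference between KO-WD and WT-WD (diamonds), between the 2 libraries of a genotype (circles) and as counting error alone gives between 2 libraries (bars), for the 190 lncRNA genes in 5 classes of mean estimated reads. The circles lie at 0.52 under 10 reads, near the bar at 0.55, and at 0.14 above 1000 reads, over the bar at 0.03.

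Among the lncRNAs with a described role, 11 of the 68 listed were among the 190 genes, and none passed the adjusted threshold. Neat1, the scaffold of paraspeckles, had 216 and 307 units in KO-WD libraries, against 211 and 190.4 units in WT-WD libraries. The genotypes did not overlap, by a small margin in the first library of each, and the log2 difference was 0.36 ± 0.18 (SE, limma unadjusted p = 0.0873, adjusted p = 0.902). Of its 2 transcripts, 1 held most of the units, with 213 and 305 in KO-WD libraries, against 209 and 187 in WT-WD libraries. The other had 3.14 and 1.37 units in KO-WD libraries, against 2.14 and 3.80 units in WT-WD libraries (log2 difference -0.31 ± 0.56, SE). Malat1 had 598 and 622 units in KO-WD libraries, against 690.4 and 681 units in WT-WD libraries. Both KO-WD libraries were below both WT-WD libraries, with a log2 difference of -0.17 ± 0.10 (SE, adjusted p = 0.902). Miat differed by 0.21 ± 0.25 on the log2 scale (SE, adjusted p = 0.934), with KO-WD replicate 2 apart from the other 3 libraries.

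No lncRNA of the next group passed the threshold either. Bc1, which represses translation at synapses, had 73.4 and 68.9 units in KO-WD libraries, against 80.3 and 115 units in WT-WD libraries. Its log2 difference was -0.43 ± 0.19 (SE, limma unadjusted p = 0.0588, adjusted p = 0.902), and WT-WD replicate 2 was the one high library. With precision weights its unadjusted p was 0.0168 and that of Neat1 was 0.0321, with adjusted p-values of 0.688 and 0.730. Oip5os1 had 58.3 and 82.6 units in KO-WD libraries, against 78.7 and 83.4 units in WT-WD libraries, which overlap. Tug1, a lncRNA tied to chromatin and to retinal development, had 96.2 and 109.7 units in KO-WD libraries, against 99.0 and 103.5 units in WT-WD libraries, and its log2 difference was 0.02 ± 0.14 (SE).

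Mir124a-1hg is the host of miR-124, a microRNA abundant in neurons, and 1 of 3 genes here among 19 listed microRNA hosts. It had 295 and 510.1 units in KO-WD libraries, against 292 and 265 units in WT-WD libraries. KO-WD replicate 2 was the one high library, and the log2 difference of 0.48 ± 0.29 (SE) did not pass (limma adjusted p = 0.911). Cerox1, which raises the level of mitochondrial complex I transcripts, had 359.9 and 995 units in KO-WD libraries, against 1090.1 and 774 units in WT-WD libraries. Most of those units come from transcripts of set 3, and in reads it had 142 and 144 in KO-WD libraries, against 139 and 236 in WT-WD libraries.

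**Figure D5:**
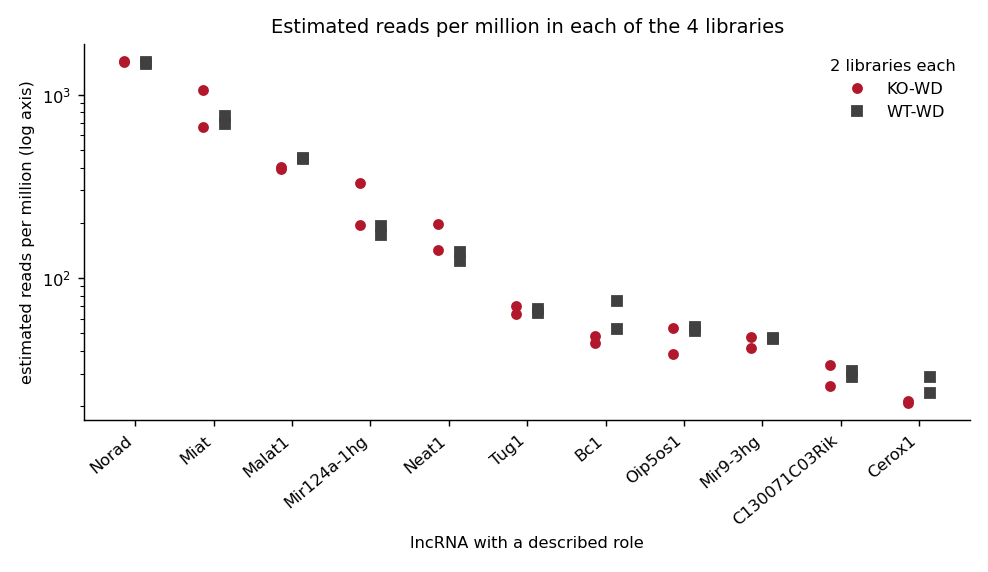
Estimated RPM (log axis) of the 11 lncRNAs with a described role in each library, with KO-WD as circles and WT-WD as squares, ordered by their mean. Norad lies at 1499 and 1522 RPM in KO-WD libraries and at 1461 and 1496 in WT-WD libraries. KO-WD replicate 2 is the highest library for Norad, Miat, Mir124a-1hg, Neat1, Tug1 and C130071C03Rik.

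The remaining genes with the smallest unadjusted p-values were predicted or antisense genes of set 3. Among those higher in KO-WD, Gm10353 had 85.8 and 70.5 reads in KO-WD libraries, against 40.3 and 55.1 reads in WT-WD libraries. Its units were 1423 and 997 in KO-WD libraries, against 714 and 639.9 in WT-WD libraries, a log2 difference of 0.82 ± 0.18 (SE, limma unadjusted p = 0.00351, adjusted p = 0.645). Gm19500 had 26 and 43 reads in KO-WD libraries, against 16 and 17.9 reads in WT-WD libraries. In units these were 431 and 608 in KO-WD libraries, against 283 and 208 in WT-WD libraries (log2 difference 1.07 ± 0.23, SE). Gm36117 had the most reads of this group, 101 and 93.9 in KO-WD libraries, against 66.6 and 93.1 in WT-WD libraries, not scaled for depth. Its units were 1679 and 1329 in KO-WD libraries, against 1180 and 1082 in WT-WD libraries. The other higher genes were LOC105244649, Gm26721, Gm12841, 2900060N12Rik, BC002059 and Gm42067, with log2 differences from 0.46 to 0.91 and adjusted p-values from 0.248 to 0.889.

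Among those lower in KO-WD, Gm43305 had 15.2 and 28.5 reads in KO-WD libraries, against 40.2 and 86.5 reads in WT-WD libraries. In units it stood at 253 and 403 in KO-WD libraries, against 712 and 1005 in WT-WD libraries, and the log2 difference was -1.40 ± 0.31 (SE, limma unadjusted p = 0.0127, adjusted p = 0.848). With precision weights its unadjusted p of 0.00170 was the smallest of the 190 genes, with an adjusted p of 0.406. A430027H14Rik, opposite the potassium channel gene Kcnk2, had 4.87 and 7.20 reads in KO-WD libraries, against 13.2 and 16.4 reads in WT-WD libraries. In units it had 80.8 and 102 in KO-WD libraries, against 233 and 190 in WT-WD libraries (log2 difference -1.21 ± 0.16, SE, limma adjusted p = 0.124). The gene 6430573P05Rik had 8.005 and 4.77 reads in KO-WD libraries, against 16.1 and 28.7 reads in WT-WD libraries. Its units were 133 and 67.4 in KO-WD libraries, against 285 and 333 in WT-WD libraries (log2 difference -1.69 ± 0.38, SE). Gm41609, Gm3134, D330025C20Rik, Gm3625, Gm46735 and Lrp8os3 had log2 differences from -1.16 to -0.40 and adjusted p-values from 0.335 to 0.852.

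The coding genes that overlap these lncRNA genes gave values of their own. Kcnk2 had 168 and 118 units in KO-WD libraries, against 137 and 148 units in WT-WD libraries (log2 difference -0.02 ± 0.18, SE). Atp6v0b, a subunit of the vacuolar proton pump opposite Gm12841, had 213 and 191 units in KO-WD libraries, against 166 and 169 units in WT-WD libraries (0.27 ± 0.12, SE). Sall1, a transcription factor gene whose span Gm3134 overlaps, had 67.04 and 69.04 units in KO-WD libraries, against 54.01 and 50.06 units in WT-WD libraries (0.38 ± 0.15, SE), while Gm3134 differed by -0.99 ± 0.21 (SE). None of these coding genes passed the adjusted threshold, with the smallest unadjusted p at 0.0377 for Sall1 (limma adjusted p = 0.902). For Mta2 and Eml3, both opposite Gm10353, the log2 differences were 0.01 ± 0.13 and 0.37 ± 0.23 (SE).

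Transcripts were also tested one by one. In that fit 0 of 243 transcripts of the 190 genes passed, as did 0 of all 29293 tested, and 29 of the 243 had an unadjusted p under 0.05, against 5.69% of all tested. The 28 genes with more than 1 transcript held 81 of these, 8 of them with an unadjusted p under 0.05, and transcripts of opposite sign occurred in 16 of the 28. These are counts of rows, so the repeated rows of Gm3255 and Gm52298 were counted as separate transcripts. A transcript of Gm52298 with a limma unadjusted p of 0.00134 stood on 2 of the 8 rows. For Oip5os1, 1 transcript had 24.3 and 23.5 units in KO-WD libraries, against 13.998 and 11.1 units in WT-WD libraries (log2 difference 0.89 ± 0.31, SE, limma unadjusted p = 0.0396). The other had 34.0 and 59.1 units in KO-WD libraries, against 64.8 and 72.3 units in WT-WD libraries (-0.60 ± 0.32, SE). For 1500004A13Rik, 1 transcript had 977 and 1002 units in KO-WD libraries, against 2271 and 1843 units in WT-WD libraries (-1.05 ± 0.15, SE, unadjusted p = 0.00132, adjusted p = 0.816), while its sum did not differ beyond the replicate spread. How the authors divided reads between transcripts is not given in the sources used here.

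Proteins that act with these RNAs were read from 4 lists. Beside the counts of each list, 5.28% of all genes tested had an unadjusted p under 0.05. Of 33 tested paraspeckle proteins, 0 passed the adjusted threshold, 1 had an unadjusted p under 0.05, and the median log2 difference was -0.04, or 0.06 without KO-WD replicate 1. That gene was Hnrnpa1, an RNA-binding protein, with 117 and 132 units in KO-WD libraries, against 149.7 and 170.01 units in WT-WD libraries. Of 28 nuclear speckle and splicing proteins 0 passed, 1 had an unadjusted p under 0.05 (Srsf11, log2 difference 0.44 ± 0.13, SE), and the median was 0.00, or 0.15 and -0.11 without KO-WD replicate 1 or 2. Most units of Srsf11 lie in set 3, and with precision weights its log2 difference was -0.03.

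Of 11 proteins reported to bind Norad, Tug1, Miat or Oip5os1, 0 passed and 2 had an unadjusted p under 0.05, with a median of 0.11. That median was -0.03 without KO-WD replicate 2. Ezh2, the histone methyltransferase of Polycomb, had 5.78 and 9.13 units in KO-WD libraries, against 2.35 and 2.08 units in WT-WD libraries (1.37 ± 0.36, SE, limma adjusted p = 0.726). Celf3, an RNA-binding protein found with Miat, had 1249 and 776 units in KO-WD libraries, against 607 and 528 units in WT-WD libraries (0.80 ± 0.25, SE, adjusted p = 0.902). With precision weights its log2 difference was 0.24, and its adjusted p lay between 0.00601 and 1.00 over all alternatives. Pum2, a Pumilio protein bound by Norad, had a log2 difference of 0.19 ± 0.10 (SE, adjusted p = 0.902), or 0.08 with precision weights. Of 15 genes of RNA decay and processing of lncRNA ends, 0 passed and 0 had an unadjusted p under 0.05, and Rpp25 had the smallest p with a log2 difference of -0.43 ± 0.20 (SE).

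Markers of other cell types also differed in level between the same libraries. Of all genes tested, 2.38% were higher and 2.90% lower in KO-WD at an unadjusted p under 0.05. All 19 choroid plexus markers were higher in KO-WD on average, 11 with an unadjusted p under 0.05 and 0 past the adjusted threshold, and their summed level was 6766 and 3850 RPM in KO-WD libraries, against 3448 and 1686 in WT-WD libraries. Of 17 oligodendrocyte markers 15 were lower, 9 with an unadjusted p under 0.05 and 0 past the adjusted threshold, at 6184 and 5796 RPM in KO-WD libraries, against 7168 and 7850 in WT-WD libraries. With precision weights 1 choroid plexus and 1 oligodendrocyte marker passed the adjusted threshold. Microglial markers summed to 481 and 441 RPM in KO-WD libraries, against 514 and 587 in WT-WD libraries, and 12 of 13 were lower. Markers of hippocampal excitatory neurons summed to 7687 and 8517 RPM in KO-WD libraries, against 7695 and 7382 in WT-WD libraries. Astrocyte markers summed to 4700 and 4777 RPM in KO-WD libraries, against 4967 and 5291 RPM in WT-WD libraries, with 3 of 12 at an unadjusted p under 0.05, all lower. Endothelial markers summed to 194 and 193 RPM in KO-WD libraries, against 199.6 and 277 RPM in WT-WD libraries, with 3 of 8 at that p, 2 of them lower. Ependymal markers summed to 36.7 and 23.3 RPM in KO-WD libraries, against 31.7 and 27.4 RPM in WT-WD libraries, and markers of neighbouring regions to 130.2 and 134 RPM in KO-WD libraries, against 127 and 125 RPM in WT-WD libraries. No gene of these 2 lists had an unadjusted p under 0.05, and of 10 interneuron markers 1 did (Vip, lower). In bulk tissue, fewer cells of a type and less RNA per cell cannot be told apart. The part of these markers in the lncRNA differences was not tested.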

How the data were processed

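Total RNA of hippocampus was sequenced in 4 libraries, 2 of Tas1r3 KO mice and 2 of wild-type mice, all on western diet. Per the submitters' processing notes, STAR, Partek and the build mm39 were used. The sources used here give no versions, annotation release, quantification model, strand use or normalization. The deposited values are a normalized signal for each of 30108 rows of RefSeq transcripts, with a constant of 0.0001 that was subtracted. Of these transcripts, 85 are listed on more than 1 row. Per the values themselves, the table falls into 3 sets by accession, the last beginning at non-coding accession number 151662, each scaled by the authors to about 1000000 units per library.

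Reads were estimated by dividing each value by the step of its set. Between 8.29% and 38.8% of transcripts below 20 reads were whole within 0.02 read, so no count model was used, and estimated depths were 6851825, 6721933, 5923168 and 8192348 reads in KO-WD replicates 1 and 2 and WT-WD replicates 1 and 2. Counting intervals use these reads at 95%, and a floor of 3 reads allows 34.8 to 53.1 units in set 3 and 0.562 to 0.775 units in set 2. Transcripts were summed per symbol with a RefSeq table of GRCm38.p6 (30073 matched, 35 not), used for names, the lncRNA type, chromosomes and overlap. The strand of genes came from GENCODE M21, matched by symbol.

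Genes reaching 1 unit in 2 or more libraries (15707) were compared in limma 3.58.1 (R 4.3.3) on log2(units + 1), with trend and robust moderation, 2 residual degrees of freedom, two-sided, and Benjamini-Hochberg adjustment over all genes at 0.05. Fold changes on that scale are understated for low genes. Precision weights came from limma's voom on genes with at least 3 estimated reads in at least 2 libraries. The fit was also run on simulated data in which the changed genes averaged at least 50 estimated reads. That run does not show how changes at fewer reads are recovered. No label says whether same-numbered libraries are paired. The correlation of deviations of same-numbered libraries was 0.04 over all genes. It rests on 1 degree of freedom per genotype and cannot decide whether they are paired.

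The genes and lists were chosen with earlier results of these data known. Named are genes past the threshold, the 12 highest in units, those with a described role, and up to 10 higher and 10 lower with the smallest p among genes whose genotypes do not overlap. In each protein list the 2 to 4 with the smallest p were eligible, and Atp6v0b, Sall1 and other coding genes are named for their overlap. Alternatives were pseudocounts, filters, quantile and median-ratio scaling, moderation, the replicate block, thresholds and leaving out libraries, and, added after seeing the data, separate trends, precision weights and genes with at least 50 reads in all libraries.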

Additional observations from a re-analysis of the deposited data

How the results depend on the processing

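With the threshold on the level at 25 or 100 units, 258 or 127 genes were taken and 3 or 2 passed. Under both other pseudocounts, both other filters, quantile and median-ratio scaling, the 2 genes called were Gm16835 and Gm36445. Without trend or robust moderation, 0 genes of 15707 and 0 of the 190 were called, and both genes had an adjusted p of 0.737. With separate trends or precision weights 0 of the 190 were called, and 4 or 15 had an unadjusted p under 0.05. Restricting to the 43 genes with at least 50 reads in all libraries left 0 called. Of these, 2 had an unadjusted p under 0.05 (4.65%), against 5.28% of all genes tested.

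The replicate block called 47 genes, 7 of them among the 190, and 43 of the 190 had an unadjusted p under 0.05. No label ties same-numbered libraries to each other, so this is not an account of pairing. Leaving out 1 library moved the calls most. Between 14 and 94 genes were called, 15 of the 190 with either KO-WD library left out, 1 without WT-WD replicate 1 (Gm42031) and 0 without WT-WD replicate 2, and 44 to 53 had an unadjusted p under 0.05. The lone library is then assumed to vary like the other genotype. The share of all genes with an unadjusted p under 0.05 is not given here for the block and leave-out fits. The counts of the 190 genes in those fits are therefore not read as particular to lncRNA genes. With either WT-WD library left out, neither Gm16835 nor Gm36445 was called. In the partner lists 1 gene was called with either KO-WD library left out, and 0 otherwise. The median log2 difference of the 190 genes lay between -0.03 and 0.07 with a library left out. Depth limits the 127 genes that averaged under 30 reads, and the causes of these shifts were not tested. For the named genes, 11 values under alternatives newly passed and 10 no longer did, while the others kept their side of the threshold.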

Other observations

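Of the 190 genes, 10 lie on chromosome 4 with Tas1r3. The nearest are Gm13112, Prdm16os and 5930403L14Rik, 33, 35 and 36 tested genes away, with log2 differences of -0.39, -0.08 and 0.21 and limma adjusted p-values of 0.902, 0.951 and 0.907. Gm3255 and Gm52298 have each of their 3 and 4 accessions on 2 rows with the same values, so their sums hold each value more than once. With each accession taken once, their lowest library still had 323 and 452 units, above the threshold of 50.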
